A study of Mus musculus with 2 samples.

Results

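The 40 genes described here encode the machinery that docks, primes and fuses insulin granules with the plasma membrane: SNARE proteins, their Munc18-type partners and recycling factors, synaptotagmins, complexins, Munc13, CAPS, RIM and the synaptotagmin-like (Slp) proteins. They were taken by gene symbol from a list of exocytosis genes, out of 55466 genes in the tables, and each symbol matched 1 row. The cells were MIN6, a mouse insulinoma line that secretes insulin and serves as a beta-cell model. All cells were equilibrated for 0.5 h at 2.8 mM glucose in bicarbonate-buffered salt solution (KRBH). They were then kept for 1 h at 25 mM glucose, a stimulating level, or at 2.8 mM, a non-stimulating level. Each glucose level had 1 library. No value therefore has a replicate error, no difference could be tested, and each difference is one between 2 libraries of 1 cell line.

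In exocytosis, a vesicle SNARE of the VAMP family on the granule pairs with a syntaxin and a SNAP-25 type protein on the plasma membrane, and the resulting bundle pulls the membranes together. Munc18, Munc13 and CAPS proteins prepare the syntaxin and the bundle for fusion, complexins hold it ready, and synaptotagmins couple it to calcium entry. In beta cells the step runs on dense-core granules rather than synaptic vesicles, so which paralogue of each family a cell uses is a main question for this gene set. Levels are given in FPKM, fragment counts scaled by transcript length and by sequencing depth. FPKM is a value per length, so levels of different genes within a library can be set side by side.

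From the steps between low FPKM values, the fitted library sizes were about 16800000 fragments at 25 mM and 19700000 at 2.8 mM. They equal the fragments counted only if the authors' processing applied no further scaling, and its settings are not given. All 8 beta-cell markers were expressed, with a summed level of 64660 FPKM at 25 mM, against 74424 FPKM at 2.8 mM. Most of this sum and of its difference was Ins2, at 50846 FPKM at 25 mM, against 60328 FPKM at 2.8 mM. Iapp, Pdx1 and Slc30a8 were also lower at 25 mM, while Ins1, Mafa, Nkx6-1 and G6pc2 were higher. Of 6 markers of other endocrine cells 1 was expressed, the glucagon gene Gcg, at 2764 FPKM at 25 mM, against 2804 FPKM at 2.8 mM. Of 4 ductal markers 1 was expressed, Spp1, for the secreted protein osteopontin, at 408 FPKM at 25 mM, against 390 FPKM at 2.8 mM, and the other 3 were listed at 0. Of 8 acinar markers 1 was expressed, the elastase gene Cela1, at 23.9 FPKM at 25 mM, against 21.0 FPKM at 2.8 mM, and 6 were listed at 0 in both libraries. Of 4 stromal markers Tagln alone was expressed, at 1.03 FPKM at 25 mM, against 1.07 FPKM at 2.8 mM, and of 4 leukocyte and endothelial markers Cd68 alone, at 3.98 FPKM at 25 mM, against 5.20 FPKM at 2.8 mM. Of 5 neuronal markers 3 were expressed, and the 5 had a summed level of 169 FPKM at 25 mM, against 179 FPKM at 2.8 mM. Map2 stood at 128 FPKM at 25 mM, against 139 FPKM at 2.8 mM, and Tubb3 at 38.7 FPKM, against 38.8 FPKM. Slc17a7 stood at 2.31 FPKM at 25 mM, against 1.95 FPKM at 2.8 mM. Rbfox3 was below 1 FPKM and Slc17a6 was listed at 0. Both libraries thus held the beta-cell markers together with Gcg, Spp1, the neuronal markers Map2 and Tubb3 and, at a lower level, Cela1.

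Most of the machinery was present and differed little between the glucose levels. Of the 40 genes, 32 were expressed, which here means a mean of at least 1 FPKM over both libraries. Of the other 8, 3 (Cadps2, Rims1 and Sytl2) were listed at 0 in both libraries and 5 (Syt1, Syt9, Doc2a, Doc2b and Unc13d) were below 1 FPKM. The members' summed level was 1224 FPKM at 25 mM, against 1211 FPKM at 2.8 mM, which was 0.183% of the library's summed FPKM at 25 mM and 0.172% at 2.8 mM. None of the 32 differed by 1.5-fold or more. Across all 12694 expressed genes 1.95% were at least 1.5-fold higher at 25 mM and 2.51% at least 1.5-fold lower, so a count of 0 among 32 members is near the background.

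**Figure D1:**
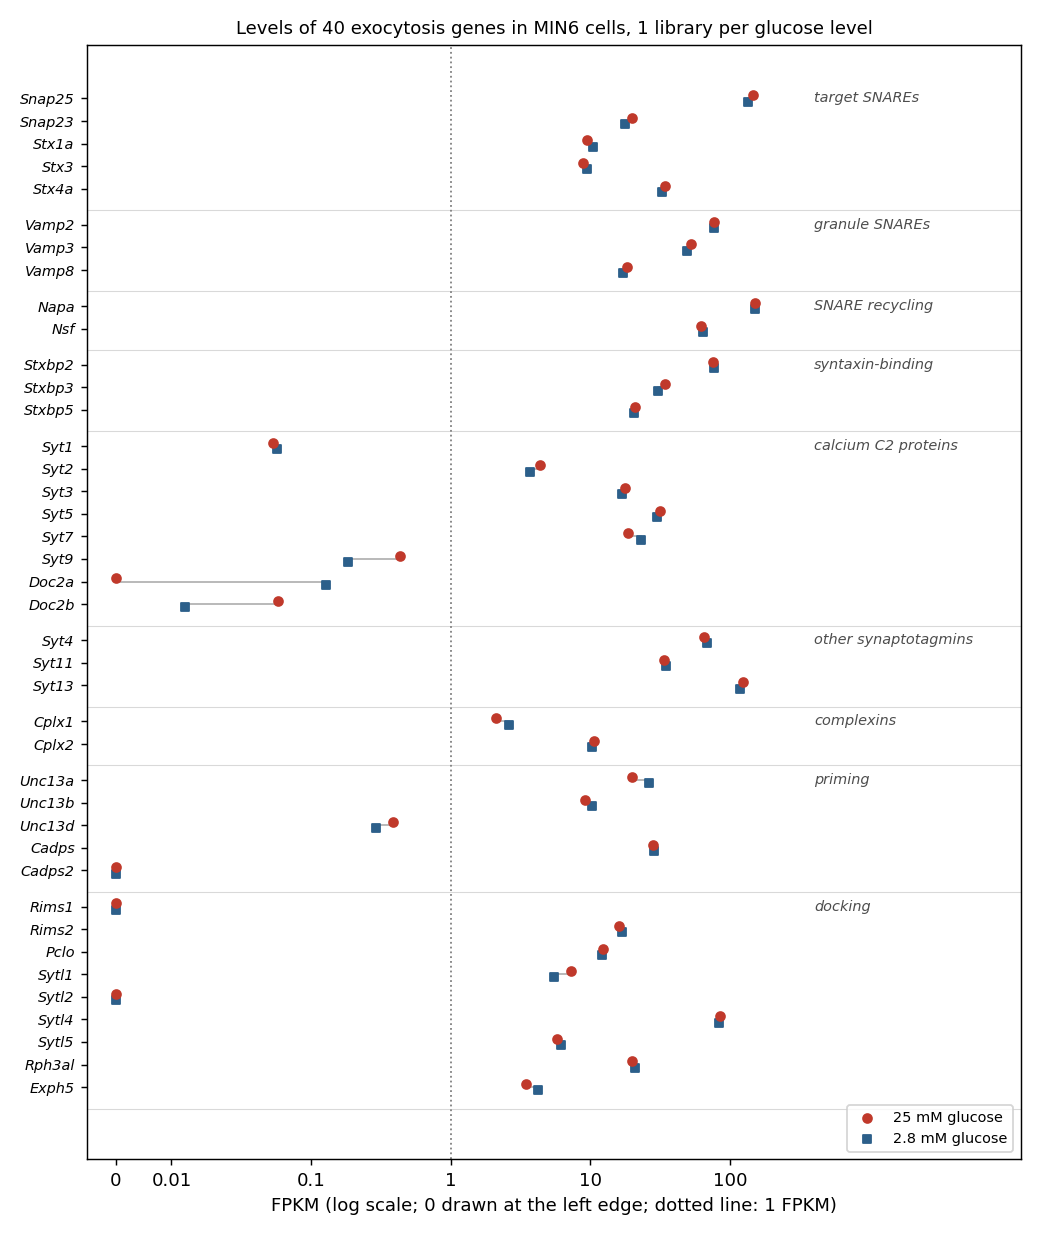
FPKM of the 40 exocytosis genes (log axis) in the 25 mM library (red circles) and the 2.8 mM library (blue squares), grouped by role, with 1 FPKM as a dotted line. Napa, Snap25 and Syt13 lay above 100 FPKM in both libraries, 8 genes lay below 1 FPKM, and most pairs of symbols nearly coincide.

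Among the plasma membrane SNAREs, Snap25 was the higher of the 2 SNAP-25 type members (ENSMUSG00000027273, GRCm38 chromosome 2, 136713453 to 136782428). It encodes the SNAP-25 of neurons and endocrine cells and stood at 147 FPKM at 25 mM, against 135 FPKM at 2.8 mM. Snap23, for its widely expressed relative, stood at 19.8 FPKM at 25 mM, against 17.8 FPKM at 2.8 mM. Snap25 thus made up 88.1% of the pair at 25 mM and 88.4% at 2.8 mM. This share leaves out 2 SNARE genes outside the 40. Snap47 stood at 76.6 FPKM at 25 mM, against 80.0 FPKM at 2.8 mM, and Snap29 at 9.54 FPKM, against 9.87 FPKM. Snap25 and Snap23 were slightly higher in the 25 mM library, by a log2 change of 0.12 for Snap25 and 0.14 for Snap23. Here the log2 change is the log2 of (FPKM + 1) at 25 mM over (FPKM + 1) at 2.8 mM, a scale on which changes of low genes look smaller than they are.

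Of the 3 syntaxins among the 40 genes, Stx4a rather than Stx1a was the highest. Syntaxins outside the 40 are left out of this ranking and of the shares below. Among them, Stx7 stood at 128 FPKM at 25 mM, against 122 FPKM at 2.8 mM. Stx2 stood at 17.8 FPKM at 25 mM, against 16.1 FPKM at 2.8 mM. Stx4a encodes syntaxin 4, the plasma membrane syntaxin linked to insulin secretion in both phases and to glucose transporter traffic in other tissues (ENSMUSG00000030805, chromosome 7, 127824294 to 127849019). It stood at 34.3 FPKM at 25 mM, against 32.6 FPKM at 2.8 mM. Stx1a, for the neuronal syntaxin 1A that pairs with SNAP-25, stood at 9.40 FPKM at 25 mM, against 10.3 FPKM at 2.8 mM, and Stx3, for a syntaxin of newly arriving granules, at 8.77 FPKM at 25 mM, against 9.47 FPKM at 2.8 mM. Stx4a held 65.4% of the 3 genes' summed FPKM at 25 mM and 62.2% at 2.8 mM, so it was 3.65 times the level of Stx1a at 25 mM and 3.15 times at 2.8 mM. The transcripts of the 3 SNARE partners of the classical complex were far from equal: Snap25 was 15.6 times Stx1a at 25 mM and 13.1 times at 2.8 mM, and Vamp2 was 8.16 times Stx1a at 25 mM and 7.36 times at 2.8 mM.

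Of the granule SNAREs, Vamp2 (synaptobrevin 2, the main VAMP of insulin granules) stood at 76.7 FPKM at 25 mM, against 76.2 FPKM at 2.8 mM. Vamp3, which encodes cellubrevin, stood at 52.1 FPKM at 25 mM, against 48.8 FPKM at 2.8 mM. Vamp8, which encodes endobrevin, stood at 18.2 FPKM at 25 mM, against 17.1 FPKM at 2.8 mM. The division among the 3 was more even than in the SNAP-25 pair, with Vamp2 at 52.2% at 25 mM and 53.6% at 2.8 mM. The recycling factors were abundant: Napa, for alpha-SNAP, the adaptor that loads the SNARE-splitting ATPase, stood at 150.4 FPKM at 25 mM, against 150.9 FPKM at 2.8 mM, the highest mean of the 40 genes and within the top 5.77% of expressed genes. Nsf, for the ATPase itself, stood at 62.3 FPKM at 25 mM, against 63.4 FPKM at 2.8 mM.

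All 3 syntaxin-binding members were expressed, with Stxbp2 the highest. Stxbp2, for Munc18-2, stood at 75.8 FPKM at 25 mM, against 76.4 FPKM at 2.8 mM. Stxbp3, for the Munc18c that binds syntaxin 4, stood at 34.2 FPKM at 25 mM, against 30.7 FPKM at 2.8 mM, but 24.4% of the 31-mers of its longest transcript occur in other annotated genes, so its reads could be shared. A further Munc18 gene is not analysed here, so no share within that family is given. Stxbp5, for tomosyn, which competes with VAMP for the syntaxin and SNAP-25 pair, was at 20.7 FPKM at 25 mM, against 20.6 FPKM at 2.8 mM.

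Most of the transcript of the 9 synaptotagmins came from members that bind calcium poorly or not at all. Syt13, whose protein lacks the residues that bind calcium in other synaptotagmins, was the highest at 123 FPKM at 25 mM, against 117 FPKM at 2.8 mM (ENSMUSG00000027220, chromosome 2, 92915098 to 92956058). Syt4 and Syt11, whose first C2 domain does not bind calcium, followed. Syt4 stood at 65.5 FPKM at 25 mM, against 68.2 FPKM at 2.8 mM, and Syt11 at 33.6 FPKM at 25 mM, against 34.6 FPKM at 2.8 mM. These 3 genes held 75.3% of the summed synaptotagmin FPKM at 25 mM and 74.9% at 2.8 mM.

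Among the 6 calcium-binding synaptotagmins, Syt5 was the highest, at 31.7 FPKM at 25 mM, against 30.1 FPKM at 2.8 mM. It held 43.5% of their summed FPKM at 25 mM and 40.9% at 2.8 mM. Syt7, for the slow, high-affinity calcium sensor of endocrine granules, stood at 18.6 FPKM at 25 mM, against 22.9 FPKM at 2.8 mM. Its share of the 6 was 25.5% at 25 mM and 31.1% at 2.8 mM, and its log2 change of -0.29 was the second lowest of the 32 expressed members. Syt3 stood at 17.7 FPKM at 25 mM, against 16.7 FPKM at 2.8 mM, and Syt2, a fast synaptic sensor, at 4.36 FPKM at 25 mM, against 3.69 FPKM at 2.8 mM. Syt7 and Syt3 were close to each other at 25 mM, and whether that order would hold in other cultures cannot be read from 1 library.

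The fast sensor gene Syt1 and the gene Syt9 were near 0. Syt1 stood at 0.0532 FPKM at 25 mM, against 0.0571 FPKM at 2.8 mM, at most about 4.06 fragments at 25 mM and 5.08 at 2.8 mM if all came from its longest transcript. Syt9 stood at 0.436 FPKM at 25 mM, against 0.182 FPKM at 2.8 mM, at most about 25.9 fragments at 25 mM and 12.6 at 2.8 mM on the same basis. Older literature exchanged the names of Syt5 and Syt9, so only the gene symbols of the files are used here. Syt3 was 40.7 times Syt9 at 25 mM and 91.7 times at 2.8 mM, both genes lying on chromosome 7.

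The upstream promoter sequences of 2 such unequal pairs, Syt3 and Syt9 and the priming genes Cadps and Cadps2, are shown because the lower gene of each pair had a start region rich in CG dinucleotides. Each is the 250 bases before the RefSeq start site on the gene's own strand (GRCm38.p6), with CG in capitals.
Syt3 (chr7:44383876-44384125, plus strand): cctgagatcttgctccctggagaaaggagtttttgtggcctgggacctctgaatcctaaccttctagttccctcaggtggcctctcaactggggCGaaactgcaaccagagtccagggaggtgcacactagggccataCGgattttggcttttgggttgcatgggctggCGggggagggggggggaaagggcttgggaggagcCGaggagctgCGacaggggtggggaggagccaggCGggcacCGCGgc
Syt9 (chr7:107370540-107370789, plus strand): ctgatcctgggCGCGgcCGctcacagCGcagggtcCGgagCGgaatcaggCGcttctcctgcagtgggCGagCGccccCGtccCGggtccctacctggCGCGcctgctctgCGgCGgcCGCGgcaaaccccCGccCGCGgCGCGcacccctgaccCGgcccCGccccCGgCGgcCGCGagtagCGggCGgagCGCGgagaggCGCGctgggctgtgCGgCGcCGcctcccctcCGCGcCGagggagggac
Cadps (chr14:12823080-12823329, minus strand): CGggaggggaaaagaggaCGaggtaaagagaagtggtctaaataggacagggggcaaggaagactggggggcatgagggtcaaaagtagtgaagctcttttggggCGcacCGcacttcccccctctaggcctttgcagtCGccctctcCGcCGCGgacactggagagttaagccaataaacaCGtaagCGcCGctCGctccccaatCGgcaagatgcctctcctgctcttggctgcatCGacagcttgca
Cadps2 (chr6:23839422-23839671, minus strand): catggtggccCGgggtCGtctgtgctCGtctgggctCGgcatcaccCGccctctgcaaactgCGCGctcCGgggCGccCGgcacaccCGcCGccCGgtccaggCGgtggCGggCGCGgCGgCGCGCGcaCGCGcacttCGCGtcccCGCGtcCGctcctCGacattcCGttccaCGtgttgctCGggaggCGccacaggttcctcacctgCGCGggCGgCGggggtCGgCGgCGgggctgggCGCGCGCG
Syt9 held 40 CG dinucleotides and Syt3 held 8, while Cadps2 held 44 and Cadps held 14. Over 32851 promoter windows of the same length the median was 6, and 1.31% held at least 40 and 0.539% at least 44. The RefSeq table matched 28 of the 40 members. The 25 windows of 24 expressed members had a median of 15 CG dinucleotides, from 1 in Sytl5 to 40 in Stxbp5, and the 5 windows of 4 members below 1 FPKM had a median of 19, from 5 in Syt1 to 44 in Cadps2. CG content therefore did not separate expressed from low members as a whole, since Stxbp5, with 40, was at about 20.7 FPKM and Syt1 held 8 and 5 in its 2 windows. Which start sites MIN6 cells use was not measured.

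The complexins, small proteins that bind the assembled SNARE bundle, were represented mainly by Cplx2. It stood at 10.6 FPKM at 25 mM, against 10.3 FPKM at 2.8 mM. Cplx1 stood at 2.11 FPKM at 25 mM, against 2.60 FPKM at 2.8 mM. Cplx2 held 83.5% of the pair at 25 mM and 79.9% at 2.8 mM. The log2 change was -0.21 for Cplx1 and 0.04 for Cplx2. Both Doc2 genes, for calcium-binding C2 proteins that act with Munc13, were near 0. Doc2a was listed at 0 FPKM at 25 mM and stood at 0.127 FPKM at 2.8 mM. Of the 31-mers of its longest transcript, 38.4% occur in other annotated genes, so its reads could be shared. Doc2b stood at 0.0582 FPKM at 25 mM, against 0.0125 FPKM at 2.8 mM, or 4 fragments against 1.

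**Figure D2:**
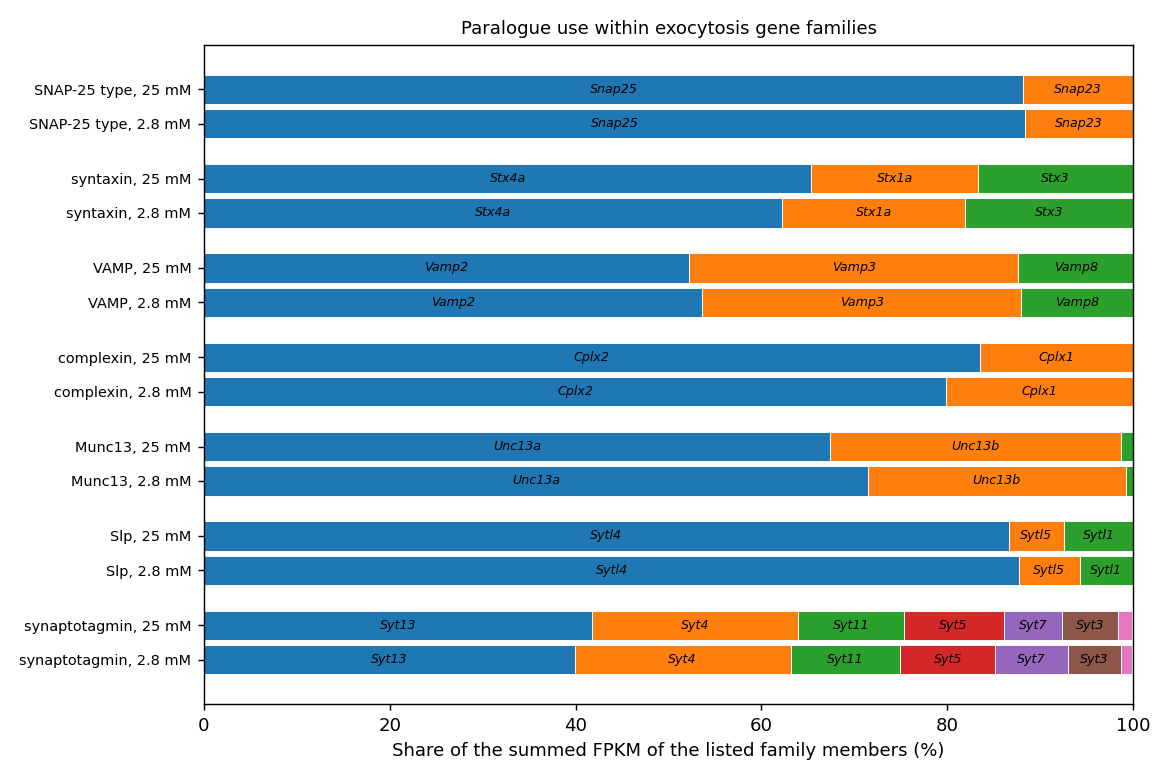
Share of each gene in the summed FPKM of the listed members of 7 families (percent), with the 25 mM bar above the 2.8 mM bar of each family. The leading gene was the same in both libraries in every family shown, from Syt13 at 41.7% (25 mM) to Snap25 at 88.1% (25 mM).

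Priming genes included the member that was furthest below its 2.8 mM level. Unc13a encodes Munc13-1, which opens syntaxin so that the SNARE bundle can form (ENSMUSG00000034799, chromosome 8, 71624417 to 71671757). It stood at 19.7 FPKM at 25 mM, against 26.4 FPKM at 2.8 mM, a log2 change of -0.40. Unc13b, for the Munc13-2 protein, stood at 9.17 FPKM at 25 mM, against 10.3 FPKM at 2.8 mM. Unc13d, for the Munc13-4 of blood cell granules, stood at 0.388 FPKM at 25 mM, against 0.291 FPKM at 2.8 mM. The summed Munc13 level was 29.3 FPKM at 25 mM, against 37.0 FPKM at 2.8 mM, and Unc13a held 67.4% of it at 25 mM and 71.4% at 2.8 mM. Cadps, for the CAPS1 protein that prepares dense-core granules, stood at 27.9 FPKM at 25 mM, against 28.6 FPKM at 2.8 mM, while its paralogue Cadps2 was listed at 0 in both libraries. The lower Unc13a value and the nearly equal Cadps values put Cadps at 1.41 times Unc13a at 25 mM and 1.08 times at 2.8 mM.

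Of the 28 members matched to a RefSeq start, Unc13a was the one whose start region held exact matches to both blocks of an RE1 element. RE1 is the site bound by REST, a repressor of neuronal genes. Sites with other letters would be missed by this search, and the 12 members without a matched start were not searched. The blocks searched were TTCAGCACC and GGACAGCGC, on both strands, in this order and with up to 12 bases between them, in windows from 250 bases before to 50 after the RefSeq start. The site is shown because it belongs to the member with the lowest log2 change, with the blocks in capitals, on the strand opposite to the gene.
Unc13a (chr8:71671727-71671752, plus strand): TTCAGCACCgggggcgcGGACAGCGC
It spans 26 bases, from base 6 to base 31 after the start site, with 8 bases between the blocks. Of the 32851 windows, 4 (0.0122%) held both blocks with any spacing of up to 12 bases, the others being those of Lhx3, Ptprn2 and Tph2. The spacing differed among them, with 2 bases in Lhx3, 0 in Ptprn2 and 8 in Tph2. Whether REST binds at each of these spacings was not tested. The first block, with or without the second, was in 0.371% of windows and the second in 0.405%. Rest itself stood at 1.92 FPKM at 25 mM, against 1.62 FPKM at 2.8 mM. The letters describe the sequence, binding was not measured, and a link between the site and the Unc13a levels was not tested.

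Docking and tethering genes were led by Sytl4, for granuphilin, the Rab27 effector that attaches insulin granules to syntaxin (ENSMUSG00000031255, chromosome X, 133936385 to 133981812). Sytl4 stood at 84.5 FPKM at 25 mM, against 83.7 FPKM at 2.8 mM, which was 86.6% of the Slp genes at 25 mM and 87.7% at 2.8 mM. Sytl1 stood at 7.27 FPKM at 25 mM, against 5.50 FPKM at 2.8 mM, the highest log2 change of the set at 0.35, and Sytl5 at 5.79 FPKM at 25 mM, against 6.20 FPKM at 2.8 mM. Sytl1 thus lay above Sytl5 at 25 mM and below it at 2.8 mM, the one exchange of order among expressed paralogues. Sytl2 was listed at 0 in both libraries.

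Of the RIM genes, for active zone scaffolds that bind Rab3 and Munc13, Rims2 stood at 16.1 FPKM at 25 mM, against 16.8 FPKM at 2.8 mM, whereas Rims1 was listed at 0 in both. Pclo, for the large scaffold Piccolo, was at 12.3 FPKM at 25 mM, against 12.1 FPKM at 2.8 mM. Rph3al, for the Rab effector Noc2 of endocrine granules, was at 19.97 FPKM at 25 mM, against 20.8 FPKM at 2.8 mM. Exph5, for the Rab27 effector Slac2-b, was at 3.48 FPKM at 25 mM, against 4.24 FPKM at 2.8 mM, a log2 change of -0.23.

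Over the 32 expressed members, 16 were higher and 16 lower at 25 mM, and 21 had a log2 change of less than 0.1 in size. With both libraries rescaled to the same summed FPKM, 24 were higher and 8 lower, so the direction of small differences follows the scaling. The median log2 change was 0.0023 for the members and -0.017 for all expressed genes. At a threshold of 1.2-fold in FPKM + 1, chosen after the values were seen, 1 member was higher (Sytl1) and 2 were lower (Unc13a and Syt7). Over all expressed genes 7.41% were at least 1.2-fold higher and 10.8% at least 1.2-fold lower, so these counts are also near or below the background. On FPKM without the pseudocount, Cplx1 (ratio of 25 mM to 2.8 mM 0.81) and Exph5 (0.82) were also more than 1.2-fold lower. Under 5 other pseudocounts and scalings and the one used here, the log2 change of Unc13a ran from -0.42 to -0.34, that of Sytl1 from 0.22 to 0.41 and that of Syt7 from -0.30 to -0.22. The directions of these 3 genes, picked for the largest changes, could hardly have differed between those settings. A pseudocount cannot reverse a sign. The scalings moved the median of all expressed genes only from -0.017 to at most 0.045. The constant directions therefore say nothing about replicate error.

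**Figure D3:**
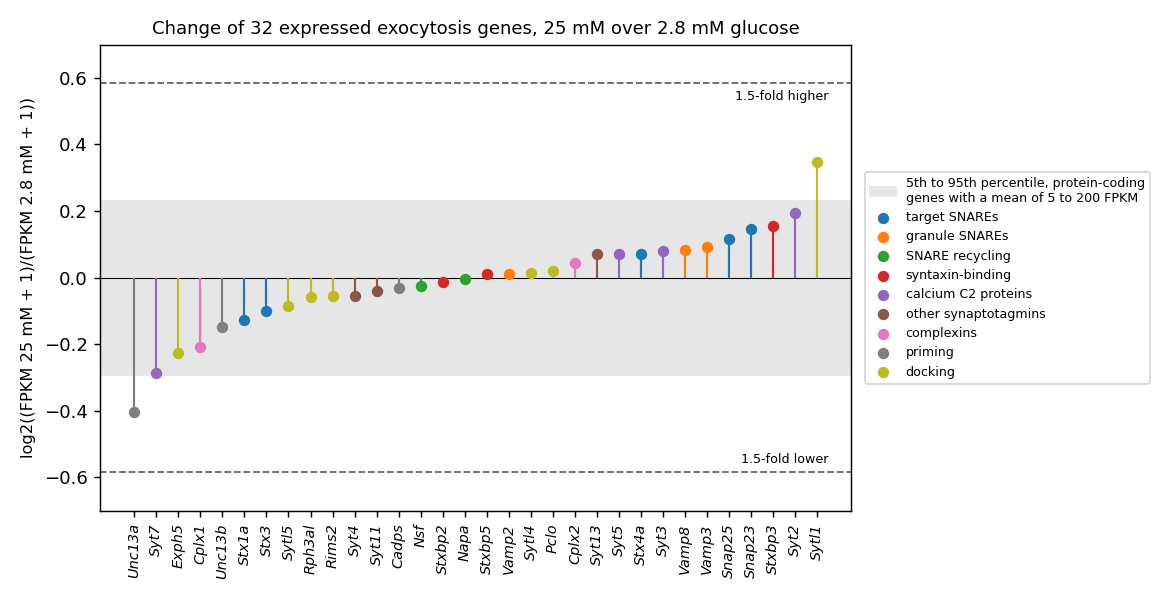
Log2 change (25 mM over 2.8 mM, FPKM + 1) of the 32 expressed members in rank order, coloured by role, with dashed lines at 1.5-fold and a grey band for the 5th to 95th percentile of protein-coding genes with a mean of 5 to 200 FPKM. No member reached 1.5-fold, and Unc13a (-0.40) and Sytl1 (0.35) lay outside the band.

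The members were set beside protein-coding genes of the same range of levels. Of 8261 such genes with a mean of 5 to 200 FPKM, the 5th and 95th percentiles of the log2 change were -0.29 and 0.23, and the SD across genes was 0.20. The 29 members in that range had an SD of 0.14 across genes, and 2 of them, Unc13a and Sytl1, lay outside those percentiles. By construction 10% of all such genes lie outside those percentiles, so the members' spread was no wider than that of other genes.

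**Figure D4:**
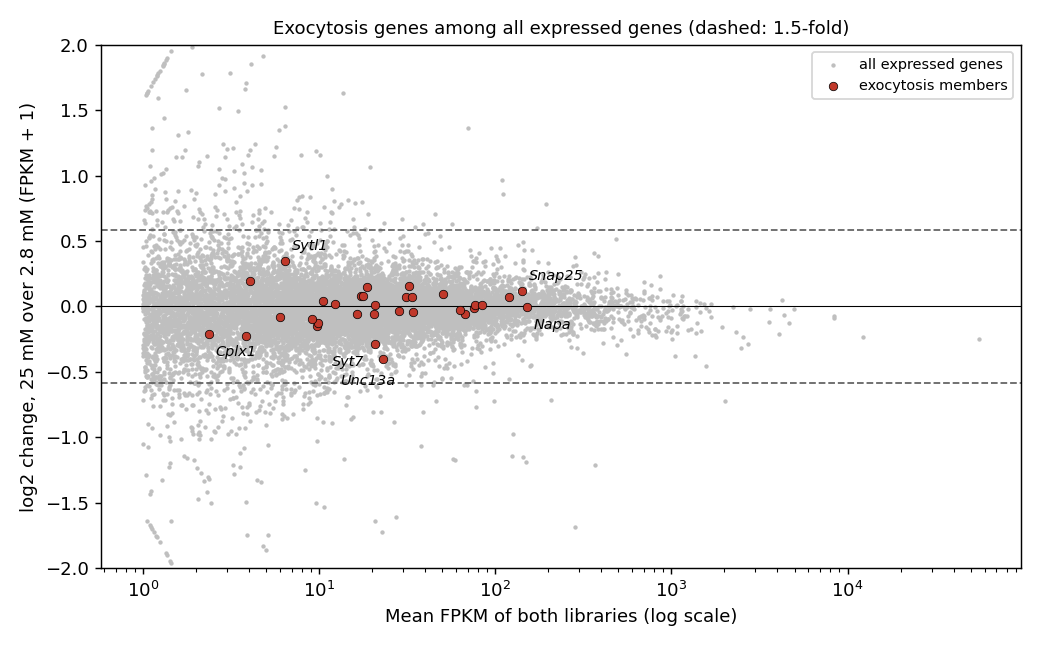
Log2 change (25 mM over 2.8 mM) against mean FPKM (log axis) for all 12694 expressed genes (grey) and the 32 expressed exocytosis members (red), with dashed lines at 1.5-fold. The members lie within the dense part of the cloud, and 85 genes beyond a log2 change of 2 in size are outside the axis.

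Fragment numbers were estimated for the 4 members with 1 annotated transcript and rounded. Of these, Doc2b alone came within 0.1 of a whole fragment in both libraries, and Syt13, Syt4 and Cplx2 each missed it in 1 library, so their numbers are estimates and not recovered counts. Syt13 had 7205 fragments at 25 mM and 7996 at 2.8 mM, a log2 ratio without pseudocount of 0.071 with an exact 95% interval, computed on the rounded estimates, of 0.025 to 0.12, which leaves out 0. Syt4 had 3977 fragments at 25 mM and 4826 at 2.8 mM (log2 ratio -0.057, interval -0.12 to 0.0034), and Cplx2 had 832 at 25 mM and 940 at 2.8 mM (0.047, interval -0.089 to 0.18). Of the 31-mers of Syt4, 12.3% occur in other annotated genes. These intervals cover counting error only and compare libraries, not conditions. For Syt4 and Cplx2 the difference was not detectable at this depth.

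The 85 further genes examined covered other SNAREs and their regulators, many of them of the Golgi and endosomes, as well as docking, exocyst and granule or vesicle membrane genes. Of these 85 genes, 61 were expressed and none was at least 1.5-fold apart in FPKM + 1, against a background of 1.95% higher and 2.51% lower. On FPKM without the pseudocount, the low gene Ppfia4 was more than 1.5-fold lower. On that scale Exoc3l (3.35 FPKM at 25 mM, against 2.65 FPKM at 2.8 mM) was more than 1.2-fold higher. At 1.2-fold in FPKM + 1, none was higher and 6 were lower. The background over all expressed genes was 7.41% higher and 10.8% lower, so the 6 lower genes are near the background share. They were Rimbp2, for a RIM-binding protein (16.7 FPKM at 25 mM, against 23.1 FPKM at 2.8 mM), Erc2, for an active zone protein (4.01 FPKM at 25 mM, against 5.61 FPKM at 2.8 mM), Ppfia4, for a liprin scaffold (0.985 FPKM at 25 mM, against 1.65 FPKM at 2.8 mM), Bet1l, for a Golgi SNARE (9.65 FPKM at 25 mM, against 13.1 FPKM at 2.8 mM), Exoc7, for an exocyst subunit (13.9 FPKM at 25 mM, against 17.8 FPKM at 2.8 mM), and Vamp1, for a neuronal VAMP (5.15 FPKM at 25 mM, against 6.66 FPKM at 2.8 mM). The median log2 change over the 61 expressed genes was 0.0069. The most abundant of the list were 2 granule or vesicle membrane genes. Ptprn, for the granule protein IA-2, stood at 258 FPKM at 25 mM, against 255 FPKM at 2.8 mM. Syp, for the vesicle protein synaptophysin, stood at 242 FPKM at 25 mM, against 225 FPKM at 2.8 mM. The highest of the other SNARE genes, Stx7, which encodes an endosomal syntaxin, stood at 128 FPKM at 25 mM, against 122 FPKM at 2.8 mM. The highest recycling and regulator gene was Scfd1, for the Golgi SNARE regulator Sly1 (62.8 FPKM at 25 mM, against 61.4 FPKM at 2.8 mM). The highest exocyst gene was Exoc4 (38.0 FPKM at 25 mM, against 38.5 FPKM at 2.8 mM). In contrast, of 12 further synaptotagmin and C2 domain genes only Syt14 was expressed, at 6.30 FPKM at 25 mM, against 7.20 FPKM at 2.8 mM.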

How the data were processed

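RNA was extracted with Trizol from MIN6 cells at each glucose level, per the labels' protocols. The deposited values are FPKM, made by the authors and named as such per the file headers. Each gene has 1 value in each library. HISAT2, Cuffdiff and GRCm38 are listed in the submitters' processing notes without settings. The sources used here do not give the kit, strandedness or annotation release. An FPKM rests on the assignment of reads to isoforms (up to 20 annotated transcripts for a member) and near-identical genes, and a 0 can be a failed estimate.

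With 1 library per group no test was possible. The pseudocount for log2 changes and for fold thresholds was 1, and the limit for expressed genes was a mean of 1 FPKM. The members, gene lists and thresholds were chosen with earlier results of these data known. All 40 members were named. Of the other list, genes at least 1.5-fold apart and the highest of each class were to be named. The threshold of 1.2-fold and its 6 genes, the CG counts, the RE1 search and the printed promoters were chosen after values were seen. So was the naming of Exoc3l, Stx2, Snap29 and Snap47. Coordinates and transcripts came from GENCODE M21 (GRCm38), promoters from RefSeq (GRCm38.p6). Shared 31-mers were counted over all annotated transcripts. Fragments were fitted from low FPKM of single-transcript genes of at least 800 nt, with 94.1% of 2249 values at 25 mM and 94.7% of 2492 at 2.8 mM within 0.1 of a whole fragment. Counting intervals were exact (Clopper-Pearson, 95%). The steps were tested on simulated data. No protein sequences were used here. The software was Python 3.11.15 with pandas 2.3.3, NumPy 2.4.6, matplotlib 3.10.9 and SciPy 1.17.1.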

Additional observations from a re-analysis of the deposited data

How the results depend on the processing

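No member was at least 1.5-fold apart with pseudocounts of 0.1 and 5, without a filter, with a filter of 5 FPKM, under the 2 rescalings and centring, or, as an alternative chosen after the data were seen, among members with under 20% of their 31-mers in other genes. At a threshold of 5 to 4, 1 member was higher and 1 lower, and 5 of the 85 further genes were apart, against 0 at 1.5-fold. At 1.2-fold, chosen after the data were seen, these counts were 1, 2 and 6. A lower threshold raises such counts by construction. With a pseudocount of 0.1, 1 of the 85 further genes was at least 1.5-fold apart (Ppfia4). The median log2 change of the members, 0.0023, was 0.068 after rescaling to equal summed FPKM, 0.044 when the sum left out mitochondrial genes and the top 10, and -0.0049 leaving out members that share 31-mers. Shares of the leading paralogues do not depend on scaling, and counting expressed members alone moved them by less than 1 percentage point. No paired analysis was possible because neither glucose level had a second library. Depth limits the members below 1 FPKM, of which Syt1 and both Doc2 genes rest on fewer than 6 fragments.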
